A study of Mus musculus with 18 samples.

Results

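Cirbp and Rbm3 encode the cold-inducible RNA-binding protein and its close relative RNA-binding motif protein 3, and their transcripts were followed in mouse liver over a day. Both genes were found by their symbols in the table of normalized counts, where each had 1 entry, and they are 2 of the 14451 genes listed and of the 14449 that could be tested. The samples were 18 whole livers of WT male mice of 8 to 9 weeks, kept under a 12 h light and 12 h dark cycle, with 3 livers at each of ZT1, ZT5, ZT9, ZT13, ZT17 and ZT21. Zeitgeber time (ZT) counts the hours from lights on, so the first 3 time points (9 livers) fall in the light and the others (9 livers) in the dark. Of 5 mice per time point, the study sequenced the 3 with the best RNA, and each liver was taken once, so a time course is read across different animals of one day. The strain is not given in the sources used here, and no mutant, fasted or temperature-shifted animals were part of the design.

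Both proteins hold a single RNA recognition motif followed by a glycine-rich tail and bind many transcripts, including those of clock genes. They are the best known mammalian transcripts that rise under mild cooling and fall under heat, and in cultured cells they follow small daily temperature cycles. Cold-dependent splicing, nonsense-mediated decay and, for Cirbp, promoter elements that act in the cold are among the ways their levels are set. No body temperature was analysed here, so the values below are ordered by time only.

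Cirbp (ENSMUSG00000045193) lies on chromosome 10 at chr10:80165985-80172786 of GRCm38, plus strand, and Rbm3 (ENSMUSG00000031167) at chrX:8138975-8145880, minus strand. The annotation (GENCODE M21) gives Cirbp 7 transcripts, of which 4 retain an intron and 1 is a target of nonsense-mediated decay, and gives Rbm3 11 transcripts, of which 2 retain an intron and 2 are such targets. The values are sums over the transcripts of a gene, so a shift between coding and non-coding isoforms would not be seen. The start of each coding sequence, which holds the RNA recognition motif, is shown because it carries the likeness between the genes and sets how well short reads tell them apart. It covers the first 84 codons (252 bases) of one coding transcript of each gene, and capitals mark the bases at which they differ.
Cirbp: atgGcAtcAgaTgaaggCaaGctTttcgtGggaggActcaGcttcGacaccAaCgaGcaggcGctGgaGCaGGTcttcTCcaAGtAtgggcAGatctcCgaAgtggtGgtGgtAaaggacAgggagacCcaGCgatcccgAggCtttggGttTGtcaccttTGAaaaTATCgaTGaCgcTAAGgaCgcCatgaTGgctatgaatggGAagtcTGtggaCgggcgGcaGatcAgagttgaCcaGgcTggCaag
Rbm3: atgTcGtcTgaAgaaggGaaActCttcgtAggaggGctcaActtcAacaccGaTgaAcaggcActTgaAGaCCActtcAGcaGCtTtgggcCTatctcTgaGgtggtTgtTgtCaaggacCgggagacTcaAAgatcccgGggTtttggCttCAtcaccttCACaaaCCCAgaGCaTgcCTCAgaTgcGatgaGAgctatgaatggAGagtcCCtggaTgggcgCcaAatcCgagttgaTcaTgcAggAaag
The stretches were identical at 180 of the 252 bases (71.4%), and 64 of the 84 codons (76.2%) gave the same amino acid. The longest run of bases shared by any transcript of one gene with any of the other was 11, against a read length of 50, so no read could match both genes in full. The values of Cirbp and Rbm3 are therefore separate measurements. Rbm3 has other uncertain reads. The pseudogene Rbm3-ps shares a run of 197 bases with it, over which reads could be divided between the copies, and the antisense gene Rbm3os overlaps it by 452 bases. No source used here states that strand was kept in the libraries, so reads in that overlap cannot be told apart, and neither Rbm3-ps nor Rbm3os was analysed here. Estimated reads were whole in 16 of 18 livers for Cirbp and in 2 of 18 for Rbm3, whose reads were thus more often divided.

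The promoter table from RefSeq (GRCm38.p6) held Cirbp but not Rbm3, so 1 of the 2 genes was matched. The window is shown because the cold response of Cirbp in cultured cells was traced to a short promoter element, TCCCCGCC, called the mild cold response element. The 189 bases at chr10:80167589-80167777, plus strand, end where the next annotated exon downstream begins. They lie inside the annotated gene, which starts upstream of them at 80165985. Capitals mark that element and the 2 CCAAT boxes (CCAAT, read as ATTGG on the other strand).
Cirbp promoter: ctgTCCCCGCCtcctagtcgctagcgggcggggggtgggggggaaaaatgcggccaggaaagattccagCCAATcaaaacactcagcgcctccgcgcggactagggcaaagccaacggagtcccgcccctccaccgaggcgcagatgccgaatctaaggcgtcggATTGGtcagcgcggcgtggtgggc
Searched on both strands over the 250 bases before the start, the element began 247 bases upstream, and 4.64% of 32851 promoters held it. The CCAAT boxes began at 181 and 85 bases upstream (33.85% of promoters held one), and 3 GC boxes (GGGCGG) at 225, 128 and 65 bases (32.74%). None of these matches overlapped another. No match was found for the E-box CACGTG (held by 6.02% of promoters), the D-box TTATGTAA (0.82%) or a heat shock element written as GAANNTTC (6.69%), which says only that these letters are not in this window. A second Cirbp promoter in the same table held 4 GC boxes and neither the cold response element nor a CCAAT box.

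The livers held 10268168 to 23242842 estimated reads each (median 12078875). Over 17 clock and clock output genes, 17 of the 18 livers were nearest to the other livers of their own time point. The exception was ZT5 replicate 3, which was nearest to ZT9. The tests of Cirbp and Rbm3 over time were repeated without it. The correlations, the overlaps between livers and the algorithms of the study include it. Hepatocyte markers (8 of 8 measured) summed to 80974 to 110642 per liver, in the unit used for the genes below, against 87.7 to 236 for Kupffer cells (6 of 6), 108 to 231 for sinusoidal endothelial cells (6 of 6), 210 to 344 for stellate cells (6 of 6), 5.58 to 15.1 for cholangiocytes (4 of 4), 5.41 to 14.7 for lymphocytes (4 of 5), 0.893 to 2.72 for neutrophils (3 of 3) and 99.6 to 412 for erythroid cells (4 of 4). No marker was at 0 in any liver. In a whole tissue, fewer cells of a type and less RNA per cell cannot be told apart.

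Cirbp transcripts stayed level through the light and stood at their lowest just after lights off. Values are estimated reads, plus an offset of 0.5, per 1000000 reads of the library size set by the authors, so they compare one gene between livers and not one gene with another. At ZT1 the 3 livers held 13.0, 16.0 and 16.6, with a mean of 15.2 ± 1.93 (SD, n = 3 here and below). At ZT5 they held 15.2, 20.2 and 12.9, with a mean of 16.1 ± 3.72, and at ZT9 14.9, 17.6 and 16.1, with a mean of 16.2 ± 1.36. The 9 livers of the light phase thus lay between 12.9 and 20.2, and the 3 time points overlapped throughout. At ZT13 the livers held 7.17, 6.67 and 8.38, with a mean of 7.41 ± 0.878, and these were the lowest 3 of all 18. Of all genes tested, 1.16% had their lowest 3 livers at ZT13. At ZT17 the values were 13.2, 9.22 and 9.94, with a mean of 10.8 ± 2.13. At ZT21 they were 14.2, 12.4 and 12.5, with a mean of 13.0 ± 1.00, so the livers of late night lay between those of ZT17 and the light phase, with overlap on both sides. In the order of the means (ZT9, ZT5, ZT1, ZT21, ZT17, ZT13), ZT17 and ZT13 were the one pair of neighbours that did not overlap (18.9% of all genes), and of the 15 pairs of time points 7 did not overlap (27.3% of such pairs over all genes).

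Rbm3 transcripts followed another course, with the lowest values just after lights on and a plateau from mid-light to early dark. At ZT1 the livers held 24.7, 23.4 and 25.5, with a mean of 24.5 ± 1.03. At ZT5 they held 38.6, 47.1 and 50.4, with a mean of 45.4 ± 6.10. These groups did not overlap (nor did they in 25.5% of all genes), and the mean at ZT5 was 1.85 times that at ZT1. At ZT9 the values were 40.0, 47.6 and 60.1, with a mean of 49.2 ± 10.2, and at ZT13 they were 47.4, 55.5 and 52.4, with a mean of 51.8 ± 4.09. The livers of the 3 time points from ZT5 to ZT13 overlapped. At ZT17 the values were 39.5, 51.0 and 34.9, with a mean of 41.8 ± 8.31, and at ZT21 they were 40.5, 25.2 and 34.3, with a mean of 33.3 ± 7.67. The lowest liver at ZT21 (25.2) lay just below the highest at ZT1 (25.5). The means fell in the order ZT13, ZT9, ZT5, ZT17, ZT21 and ZT1, each overlapped its neighbour, and 5 of the 15 pairs of time points did not overlap, near the 27.3% over all genes.

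**Figure D1:**
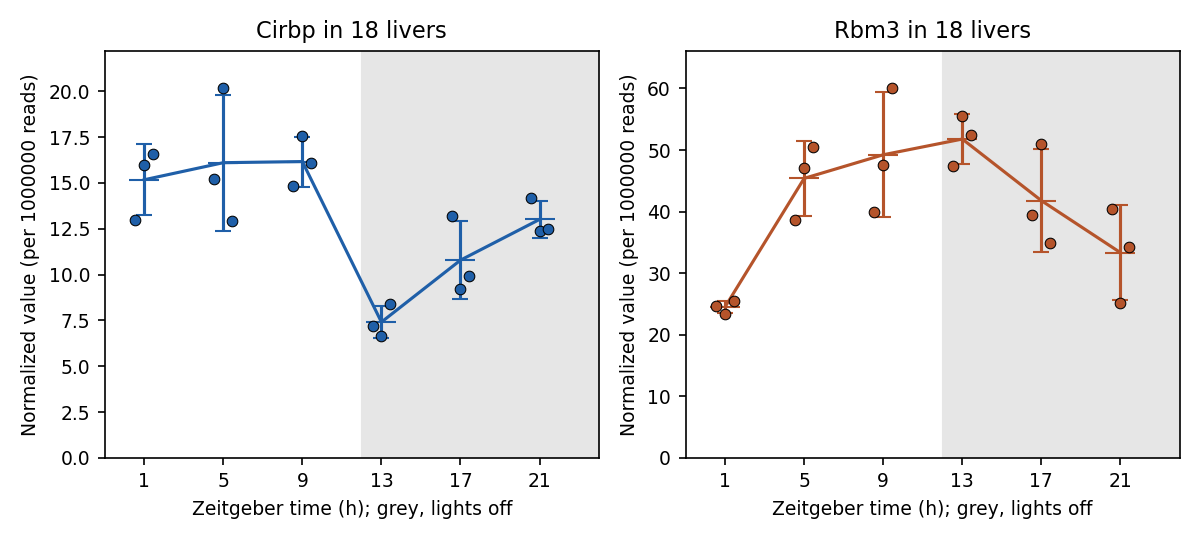
Normalized values of Cirbp (left) and Rbm3 (right) against zeitgeber time in hours, with points for the 18 livers and bars for the mean ± SD of 3 livers; the dark phase is grey. The Cirbp livers at ZT13 (6.67 to 8.38) lie under all others, and the Rbm3 livers at ZT1 (23.4 to 25.5) lie under all others but 1 at ZT21.

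The depth behind these values was modest for Cirbp and larger for Rbm3. Cirbp rested on 87 to 310 estimated reads per liver, which gives a counting error of 5.68% to 10.7%, and livers of one time point varied by 7.70% to 23.1% (coefficient of variation). Rbm3 rested on 257 to 1211 reads, with a counting error of 2.87% to 6.24% and a variation between livers of 4.20% to 23.0%. Part of the scatter of Cirbp was therefore within reach of counting error, which covers reads only and no step before sequencing. The highest time point mean was 2.18 times the lowest for Cirbp (ZT9 over ZT13) and 2.11 times for Rbm3 (ZT13 over ZT1). Time point means varied by 26.5% for Cirbp and 25.2% for Rbm3, higher than in 79.6% and 77.2% of all genes, whose median was 14.9%.

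Differences over time were tested with limma on log2(value + 1), across all 14449 genes, with Benjamini-Hochberg adjustment and a threshold of 0.05. The time effect passed for Cirbp (adjusted p = 0.000821) and for Rbm3 (adjusted p = 0.00293), as it did for 26.3% of all genes. The means spanned 1.03 on the log2 scale for Cirbp and 1.05 for Rbm3. Leaving out any 1 liver gave 0.97 to 1.15 for Cirbp and 1.00 to 1.11 for Rbm3, with every adjusted p under the threshold.

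Cirbp made a single step that passed the test, a fall between ZT9 and ZT13 over lights off. The mean went from 16.2 to 7.41, a ratio of 2.18, and the difference was -1.03 ± 0.16 (log2, SE; adjusted p = 0.000950). At this step 9.23% of all genes passed, and 4.60% of all genes were lower at ZT13. The fall ranged from -1.11 to -0.97 when single livers were left out, and the largest adjusted p among these fits was 0.00682. The way back up was spread over the night. The step from ZT13 to ZT17 was 0.48 ± 0.16 (adjusted p = 0.154), that from ZT17 to ZT21 was 0.26 (adjusted p = 0.470) and that from ZT21 to ZT1 was 0.20 (adjusted p = 0.754), and 1.20%, 1.51% and 0.131% of all genes passed there. Although no single one of these steps passed, the levels at the start of the light were higher than those of early night, since ZT13 minus ZT1 was -0.94 ± 0.16 (adjusted p = 0.000945, 14.2% of genes passed). In the light, ZT5 minus ZT1 was 0.07 (adjusted p = 0.864) and ZT9 minus ZT5, where 1.54% of genes passed, was 0.02 (adjusted p = 0.977). Neither has a settled direction, since without ZT5 replicate 3 they were 0.20 and -0.11, and other livers turned them too.

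Rbm3 also made a single step that passed, a rise between ZT1 and ZT5 early in the light. The difference was 0.85 ± 0.18 (adjusted p = 0.0111), where 4.89% of all genes passed and 2.53% were higher at ZT5. This call depended on single libraries. The rise was 0.78 to 0.96 when single livers were left out, and it missed the threshold without ZT1 replicate 2 (adjusted p = 0.0520) and without ZT5 replicate 3 (adjusted p = 0.0584), the liver whose clock genes were nearest to ZT9. Without that liver the 24 h amplitudes below were 0.47 for both genes, the dark minus light difference of Cirbp was -0.63, and no other call for either gene changed. The comparison of ZT13 with ZT1, whose means do not include that liver, gave a larger difference of 1.05 ± 0.18 (adjusted p = 0.00117), with 1.00 to 1.11 without any 1 liver. From ZT5 to ZT9 Rbm3 differed by 0.10 (adjusted p = 0.891), and by 0.18 without ZT5 replicate 3. Over lights off, where Cirbp fell, Rbm3 differed by 0.09 (ZT13 minus ZT9, adjusted p = 0.816), and by -0.049 without ZT9 replicate 1. The later steps were -0.32 to ZT17 (adjusted p = 0.435), -0.33 to ZT21 (adjusted p = 0.429) and -0.40 ± 0.18 to ZT1 (adjusted p = 0.530), all downward and none past the threshold.

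**Figure D2:**
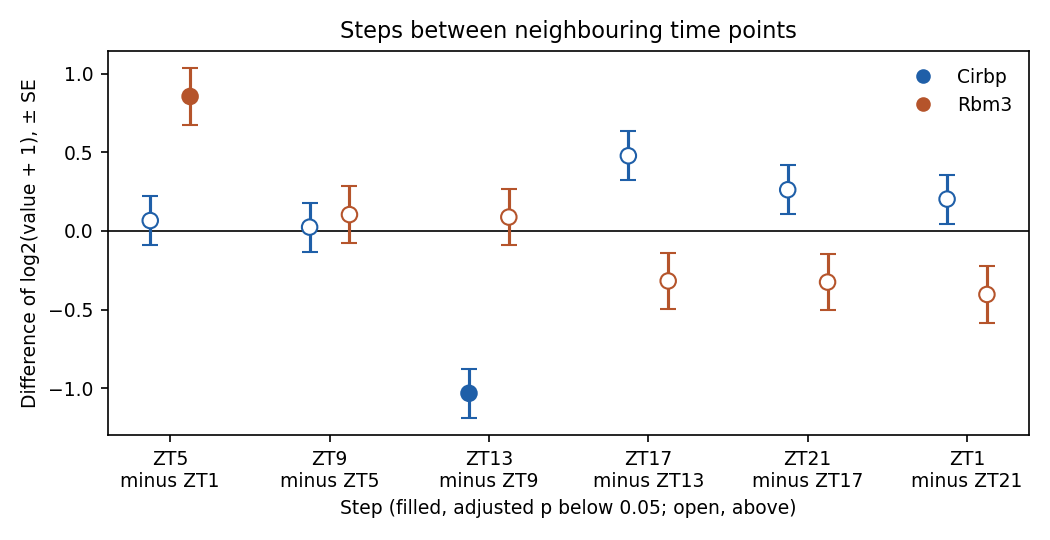
Difference of log2(value + 1) between each time point and the one before it, ± SE, for Cirbp (blue) and Rbm3 (brown), with filled points for adjusted p under 0.05. The filled points are the fall of Cirbp from ZT9 to ZT13 (-1.03) and the rise of Rbm3 from ZT1 to ZT5 (0.85).

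Time points 12 h apart and the contrast of dark with light set the genes further apart. Cirbp was 15.8 ± 2.26 over the 9 livers in the light (lowest 12.9, median 16.0, highest 20.2) and 10.4 ± 2.75 over the 9 in the dark (lowest 6.67, median 9.94, highest 14.2), so the groups overlapped in part. Its difference, dark minus light over the 6 means, was -0.59 ± 0.09 (adjusted p = 0.000286, 24.3% of all genes passed). Rbm3 was 39.7 ± 13.0 in the light (lowest 23.4, median 40.0, highest 60.1) and 42.3 ± 10.01 in the dark (lowest 25.2, median 40.5, highest 55.5), with full overlap, and its difference was 0.12 ± 0.10 (adjusted p = 0.422). ZT17 minus ZT5 was -0.53 ± 0.16 for Cirbp (adjusted p = 0.0263) and -0.13 for Rbm3 (adjusted p = 0.662), where 19.7% of genes passed. The Cirbp call was lost without ZT5 replicate 2 (-0.36, adjusted p = 0.125), without ZT17 replicate 2 (adjusted p = 0.104) and without ZT17 replicate 3 (adjusted p = 0.0772). Without ZT5 replicate 3 the differences were -0.67 for Cirbp (adjusted p = 0.0127) and -0.047 for Rbm3 (adjusted p = 0.904). ZT21 minus ZT9 was -0.29 for Cirbp (adjusted p = 0.259) and -0.55 ± 0.18 for Rbm3 (adjusted p = 0.0611, 10.7% of genes passed), and the latter passed in some alternative fits.

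A cosine of 24 h placed the peaks of the genes in different parts of the light phase. Cirbp had an amplitude of 0.43 ± 0.09 (log2, SE) and a peak at ZT 3.26 ± 0.809 h (adjusted p = 0.00451). Rbm3 had an amplitude of 0.46 ± 0.08 and a peak at ZT 11.3 ± 0.689 h (adjusted p = 0.00126). In all, 35.3% of genes passed this test, so the call itself is common in these livers. The fitted peaks were 8.07 ± 1.06 h apart (SE from both fits, taken as independent, with the period fixed at 24 h). Leaving out single livers moved the Cirbp peak between 2.76 and 3.62 h and the Rbm3 peak between 10.98 and 11.7 h. The fitted peak of Cirbp lies in the flat stretch of values from ZT1 to ZT9. A 12 h term added to the fit had an amplitude of 0.24 ± 0.07 for Cirbp (adjusted p = 0.263) and 0.16 ± 0.08 for Rbm3 (adjusted p = 0.603), and 0.872% of genes passed.

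The algorithms the study used, written anew here, gave other calls for the same values. The study's own packages were not run, and the study reported more genes for each algorithm in these livers. JTK, a rank test against reference waves, gave q = 0.194 for Cirbp and 0.0537 for Rbm3, where 14.1% of genes passed. MetaCycle, which combines JTK with the Lomb-Scargle periodogram, gave 0.118 for Cirbp and 0.0291 for Rbm3, where 18.3% passed. The cosine curve of CircaN, which fits the period between 20 and 28 h and needs an R2 of at least 0.7, gave R2 of 0.613 for Cirbp and 0.648 for Rbm3, where 11.2% passed. Thus none of the 3, as written here, called Cirbp, and Rbm3 was called by MetaCycle alone. For Cirbp the best period and peak were 28 h and ZT 1 by JTK, and 20.9 h and ZT 4.77 by the CircaN cosine. For Rbm3 they were 20 h and ZT 11 by JTK, and 25.1 h and ZT 11.3 by the CircaN cosine. Whether the study's packages would call either gene was not tested. The other curves of CircaN were not run. The difference between these calls and the fixed 24 h cosine was not tested.

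**Figure D3:**
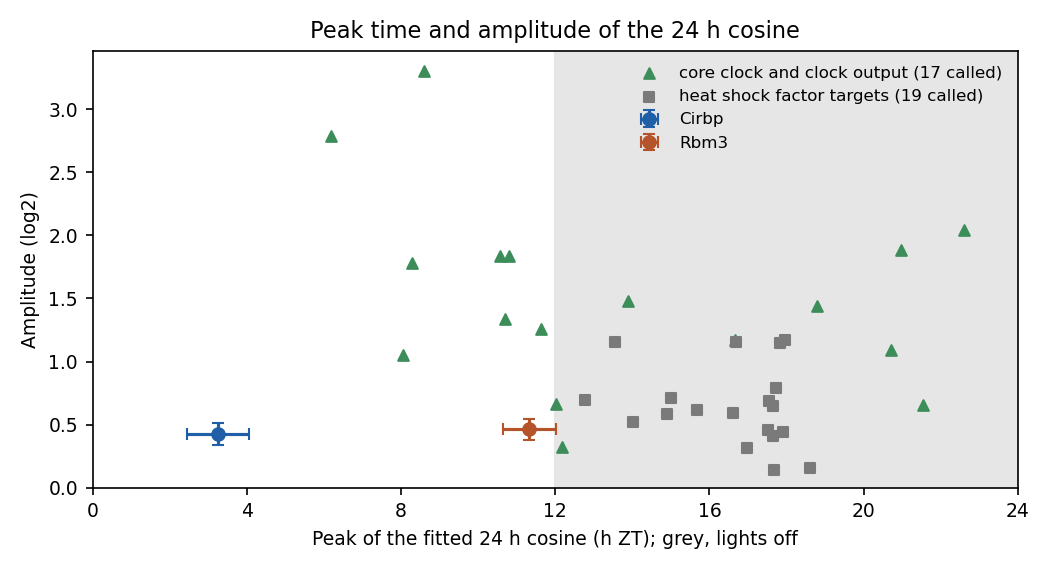
Peak time in hours ZT against amplitude on the log2 scale from the 24 h cosine, for Cirbp and Rbm3 (circles, ± SE), 17 clock and clock output genes (triangles) and the 19 heat shock factor targets that passed (squares); the dark phase is grey. Cirbp (ZT 3.26) peaks where no clock gene of the list does, Rbm3 (ZT 11.3) peaks among them at an amplitude above that of 1 of the 17, and the heat shock targets peak from ZT 12.8 to 18.6.

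The difference of the genes within a liver changed over the day by more than the spread between livers. The log2 difference, Cirbp minus Rbm3, had a mean of -0.66 ± 0.19 (SD) at ZT1, -1.45 ± 0.38 at ZT5, -1.53 ± 0.27 at ZT9, -2.65 ± 0.20 at ZT13, -1.86 ± 0.44 at ZT17 and -1.27 ± 0.26 at ZT21. It was lowest at ZT13 in all 3 livers, which lay below the other 15. Its size depends on the length of each transcript, so only its course over the day is read. Time point accounted for 0.856 of its variance (p = 0.00012, one-sided permutation test with 100000 resamples), and leaving out single livers gave 0.825 to 0.895. On the plain difference of the linear values the share was 0.776 (p = 0.00179, permutation test).

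**Figure D4:**
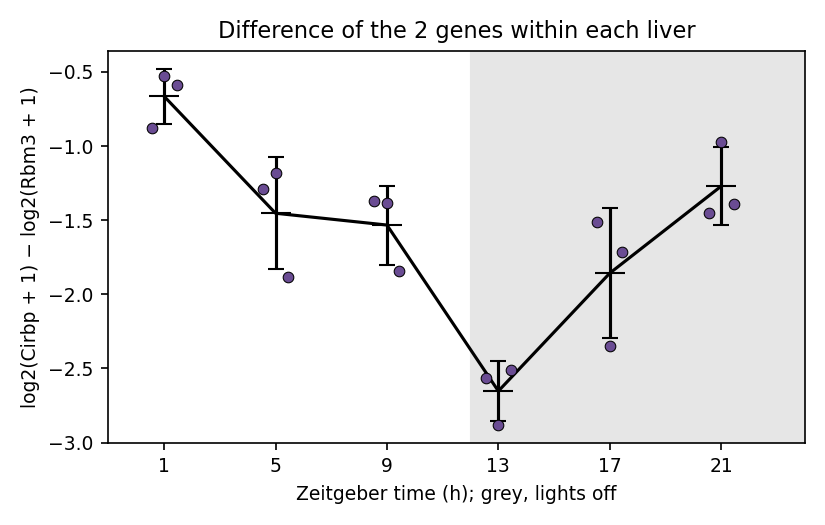
log2(Cirbp + 1) minus log2(Rbm3 + 1) within each liver against zeitgeber time in hours, with points for 18 livers and bars for the mean ± SD of 3; the dark phase is grey. The mean goes from -0.66 at ZT1 to -2.65 at ZT13 and back to -1.27 at ZT21.

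Across the 18 livers the genes were weakly and negatively related, with Pearson's r = -0.299 (permutation p = 0.228, adjusted over 3 relations 0.684) and Spearman's rho = -0.220 (permutation p = 0.378, adjusted 1). Without the 2 livers farthest from the median of Cirbp, both at ZT13, r was -0.108 (permutation p = 0.692). Once the mean of each time point was taken away, r was 0.0197 (permutation p = 0.942) and rho -0.00103. No linear or rank relation between their values in the same liver was thus detected in 18 livers, over the day or between livers of one time point. Such measures compare values at the same time, so they can miss courses that are shifted in time.

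Heat shock factor targets, chaperones and their partners that rise under heat, were counted beside the pair because heat lowers Cirbp and Rbm3. This list was chosen with earlier results known, so its direction is no independent evidence. All 21 were measured, and between ZT9 and ZT13, when Cirbp fell, 17 of the 21 rose and none fell, against 4.64% and 4.60% of all genes. Their median difference was 1.07 on the log2 scale. Hspa1b, an inducible HSP70, went from a mean of 14.9 to 128 (2.94 ± 0.32). Hsph1, an HSP110 co-chaperone, went from 39.9 to 162 (2.08), Hsp90aa1, the inducible HSP90, from 124.8 to 440 (1.83) and the small heat shock protein gene Hspb1 from 8.56 to 22.2 (1.26). The 4 that did not pass were Serpinh1, Hspd1, Hspa4 and St13. A 24 h rhythm passed in 19 of the 21 (35.3% of all genes), all with a peak in the dark, from ZT 12.8 to 18.6. Among all 5103 genes that passed, 2469 had a peak in the dark. In the dark minus light contrast 18 of the 21 were higher in the dark while none was lower, against 11.9% and 12.3% of all genes. Each of the 21 had a negative r with Cirbp over the livers, between -0.84 and -0.31, whereas r with Rbm3 ran from -0.53 to 0.49. At the step where Rbm3 rose, ZT1 to ZT5, 8 of the 21 fell and none rose (median -0.47), against 2.36% and 2.53% of all genes. Only 5 passed without ZT5 replicate 3, and 5 also without ZT1 replicate 2, ZT1 replicate 3 or ZT5 replicate 2. The points in these correlations are the same 18 livers and share the time of day.

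**Figure D5:**
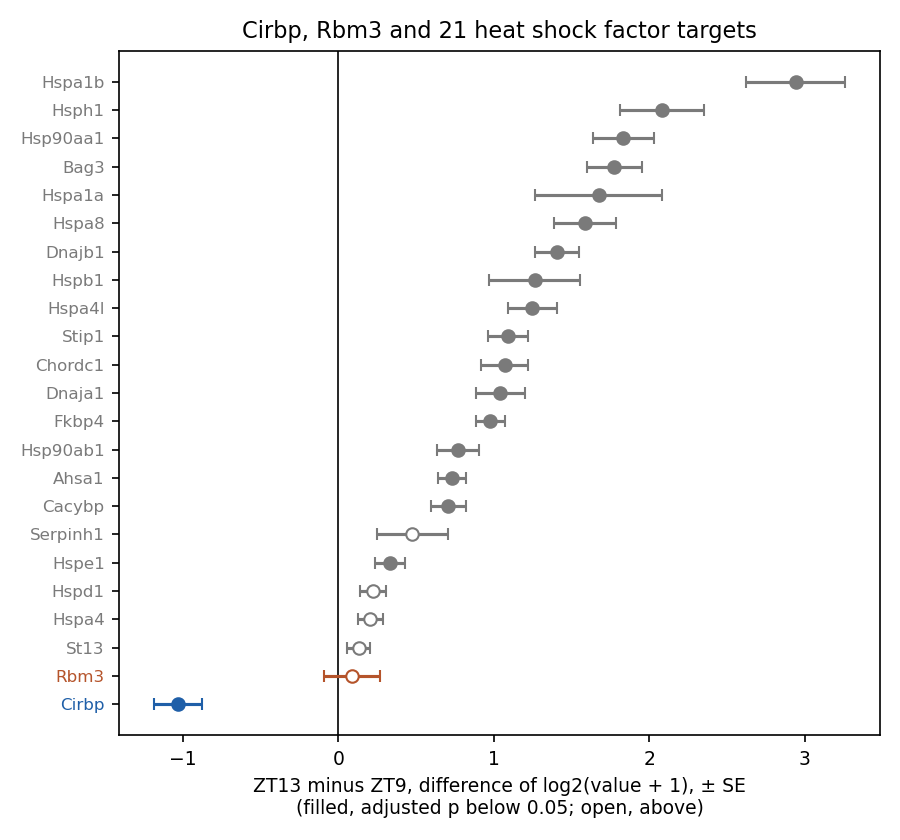
Difference of log2(value + 1) between ZT13 and ZT9, ± SE, for 21 heat shock factor targets (grey), Rbm3 (brown) and Cirbp (blue), ordered by size, with filled points for adjusted p under 0.05. Cirbp is the one gene shown that is lower at ZT13 (-1.03), Rbm3 lies near 0 (0.09) and Hspa1b is farthest up (2.94).

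Other RNA-binding proteins of like build did not share one course with the pair. Of 21 relatives (hnRNP, SR and other RNA recognition motif genes), 7 passed the 24 h test, a share near that of all genes, with 2 peaks in the light and 5 in the dark. Tra2a, Tra2b and Srsf3, which act in splicing, peaked at ZT 20.1, 19.99 and 17.2. The 2 with a peak in the light were Msi2, a translational regulator, at ZT 2.26 and the splicing factor Srsf5 at ZT 3.16, and their r with Cirbp over the livers was 0.78 and 0.80. From ZT9 to ZT13, 4 of the 21 relatives fell as Cirbp did and 3 rose, against 4.60% and 4.64% of all genes. Named after their values were seen, the genes that fell were Srsf5 (-0.64), Hnrnpdl (-0.50), Hnrnpd (-0.46) and Msi2 (-0.45), each a smaller difference than that of Cirbp, and the genes that rose were Rbm14 (0.75), Tra2b (0.54) and Srsf3 (0.47). The X-linked Rbmx, the nearest relative outside the pair, shared runs of at most 13 bases with either gene.

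Genes known to set the level, decay or location of the proteins showed no shared course. Of 16 such regulators and partners 15 were measured, and 5 passed the 24 h test, again near the share of all genes. Tnpo1, the import receptor of the proteins, peaked at ZT 3.82 and Sp1, a factor that binds the cold response element, at ZT 1.77, both with amplitudes under that of Cirbp. Clk3, of the kinases that steer temperature-dependent splicing, peaked at ZT 20.7, and Upf1, the helicase of nonsense-mediated decay, at ZT 15.2. The other kinases of that family, named after their values were seen, differed from Clk3. Clk1 passed with a peak at ZT 1.35, and Clk2 and Clk4 did not pass. From ZT9 to ZT13, 1 of the 15 fell and 1 rose, against 4.60% and 4.64% of all genes. These were Tnpo1 (-0.39, limma adjusted p = 0.0381) and Upf1 (0.33, limma adjusted p = 0.0328). Of the transcripts reported to be bound by the proteins, 7 of 8 were measured and 2 had a rhythm (35.3% of all genes did), Clock (peak ZT 21.5) and the DNA damage kinase Atr (peak ZT 6.33). Of the receptors for CIRBP outside the cell, 3 of 4 were measured and 1 passed, also no more than that share, Il6ra, with a peak at ZT 11.7.

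The clock genes gave the scale for these changes. All 17 passed the 24 h test, against 35.3% of all genes. Their amplitudes were 0.32 to 3.30, above the 0.43 of Cirbp and 0.46 of Rbm3 in all but 1. Arntl, the positive arm of the clock, peaked at ZT 21.0, Nr1d1 at ZT 6.20, the output factor Dbp at ZT 8.59 and Per2 at ZT 13.9.

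The genes most like each member were taken by Pearson's r over the 18 livers, among 12479 genes with a mean value of at least 1. For Cirbp the highest were Gpbp1l1 (0.88), the endocytic adaptor Eps15 (0.87), the cGMP phosphodiesterase Pde5a (0.87), Dennd1b (0.87), Meiob (0.87), Cdkn2aip (0.86), Mob3b (0.86), the repressor Hbp1 (0.86), Sntg2 (0.85) and Chic2 (0.85). All 10 had their lowest mean at ZT13, as Cirbp did, and 9 passed the 24 h test (35.3% of all genes did). Both follow largely from the choice of genes by r over the same livers. Among the most opposed were the focal adhesion gene Tns1 (-0.92), the calcineurin inhibitor Rcan1 (-0.90), 4833439L19Rik (-0.88) and Ankrd9 (-0.87), all highest at ZT13. Of all these genes, 95% had an r with Cirbp between -0.70 and 0.72.

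For Rbm3 the most like were the ethanolamine kinase Etnk2 (0.89), Cdc42ep1 (0.88), the histamine methyltransferase Hnmt (0.87), the clock output factor Tef (0.86), the liver glycogen synthase Gys2 (0.86), the clock gene Per3 (0.86), the phosphate carrier Slc20a1 (0.85), Ap3m1 (0.85), Gse1 (0.85) and the uridine phosphorylase Upp2 (0.85). All 10 had their lowest mean at ZT1, as Rbm3 did. All passed the 24 h test (35.3% of all genes did) with peaks from ZT 9.98 to 11.5. These likenesses, too, follow largely from the choice by r. The most opposed were Pnrc1 (-0.89), Nid2 (-0.88), Fam160a1 (-0.88), Loxl4 (-0.87) and Ept1 (-0.87). Of all these genes, 95% had an r with Rbm3 between -0.66 and 0.65. No gene was in both lists.

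Summed markers of other cell types also had means that moved between time points, and these sums were not tested. The time effect passed for 1 of the 6 Kupffer markers and 0 of the 6 endothelial markers, against 26.3% of all genes. The 24 h test passed for 3 of the 6 Kupffer and 2 of the 6 endothelial markers, against 35.3% of all genes. Those that passed peaked in the light, from ZT 8.10 to 8.52 and from ZT 6.91 to 7.88. The summed Kupffer cell markers had means of 152 at ZT1, 201 at ZT5, 206 at ZT9, 184 at ZT13, 147 at ZT17 and 120 at ZT21, and ran from 101 to 209 at ZT1 against 174 to 236 at ZT5, where the mean was 205 without replicate 3. The summed endothelial markers had means of 164, 212, 201, 188, 161 and 148 at the same time points. Both sums rose in mean from ZT1 to ZT5 and fell from ZT13 to ZT21, as the means of Rbm3 did. Their lowest means were at ZT21, and that of Rbm3 was at ZT1. None of the 6 Kupffer and 6 endothelial markers passed at the step from ZT1 to ZT5, where 4.89% of all genes did. Their r with Rbm3 was 0.14 to 0.35 and -0.03 to 0.30, inside the range that held 95% of all genes. The summed cholangiocyte markers went the other way to Rbm3 at that step, from a mean of 13.1 (11.7 to 15.1) at ZT1 to 6.36 (5.58 to 6.92) at ZT5, without overlap. Of these 4 markers Sox9 alone passed (-1.18, adjusted p = 0.00109), with an r of -0.69 with Rbm3. It made up most of the sum, with a mean of 9.18 at ZT1 and 3.53 at ZT5. Krt19 and Krt7 had an r of -0.43 and -0.52 with Rbm3. Epcam went from 0.946 to 1.11 at that step, with an r of 0.59. The part of these cells in the level of Rbm3 or of Cirbp was not tested. For Cirbp, r with the Kupffer and endothelial markers lay between -0.09 and 0.30. The means of both sums at ZT13 were above those at ZT1, where Cirbp was higher, but the livers overlapped. The Kupffer sum was 101 to 209 at ZT1 and 165 to 218 at ZT13, and the endothelial sum 132 to 202 and 153 to 212.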

How the data were processed

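Polyadenylated RNA of 18 livers was sequenced in single reads of 50 nt on an Illumina HiSeq2500. The authors removed adapters with Cutadapt, estimated counts with RSEM (1.2.20 in the submitters' processing notes) on the GRCm38 transcriptome and normalized them with limma. Each deposited value is a linear signal, the estimated count plus 0.5, per 1000000 reads of the authors' effective library size. Estimated reads and depth were recovered from each liver's lowest value. Only 39.1% to 47.9% of values were whole reads, so no count test was used. Of 14451 genes, 2 at the floor in every liver were left out.

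Values were tested as log2(value + 1), a scale that understates folds of low genes. The tests used limma 3.58.1 (R 4.3.3) across 14449 genes with Benjamini-Hochberg adjustment. Each library came from 1 mouse. Members and gene lists were chosen with earlier results of these data known. Named genes are the up to 4 of a list with the largest amplitude among those that passed the 24 h test (Arntl, Per2, Dbp and Nr1d1 for the clock), and the 10 most like and 5 most opposed to each member, of which 1 is not reported here. In simulated data, the 24 h test called 92 of 100 genes of amplitude 0.5. Alternatives were the pseudocount, linear values, 2 rescalings, a filter, limma-trend, single livers left out and the study's algorithms, written anew here. The counts of heat shock factor targets under these settings were added after seeing the data.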

Additional observations from a re-analysis of the deposited data

How the results depend on the processing

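Of 540 values refitted with 1 liver left out, 520 kept their direction and side of the threshold (counts, within 1.5 times), as did 205 of 216 under other settings. In 9 fits a difference that did not pass changed sign. With single livers out, ZT5 minus ZT1 of Cirbp ran from -0.10 to 0.20, ZT9 minus ZT5 of Cirbp from -0.11 to 0.19 (-0.0034 with equal totals), ZT9 minus ZT5 of Rbm3 from -0.047 to 0.24 and ZT13 minus ZT9 of Rbm3 from -0.049 to 0.24. The 24 h rhythm was lost for Cirbp under JTK (q = 0.194), MetaCycle (q = 0.118) and the CircaN cosine (R2 = 0.613), all as written here. For Rbm3 it was lost under JTK (q = 0.0537) and the CircaN cosine (R2 = 0.648), and the cause was not tested. ZT21 minus ZT9 of Rbm3 (-0.55, adjusted p = 0.0611 by limma) passed with pseudocount 2 (-0.54, adjusted p = 0.0492), equal totals (-0.60, adjusted p = 0.0318) and limma-trend (-0.55, adjusted p = 0.0349). Without single livers it ran from -0.70 to -0.37 and passed without ZT9 replicate 1, ZT17 replicate 2 or ZT21 replicate 1. The same range was -0.67 to -0.36 for ZT17 minus ZT5 of Cirbp and 0.78 to 0.96 for ZT5 minus ZT1 of Rbm3. Where a time point kept 2 livers, the fit pooled the spread.

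Of the heat shock factor targets, 16 to 20 had a rhythm, 14 to 17 rose from ZT9 to ZT13 and 5 to 9 fell from ZT1 to ZT5 (8 with all livers, 5 on linear values and 5 with equal totals). Genes called went from 222 to 334 (limma-trend) or 79 to 238 (single livers out) at ZT9 minus ZT5, from 174 to 294 (linear), 300 (limma-trend) or 49 to 208 at ZT17 minus ZT13, from 218 to 333 (limma-trend) or 49 to 209 at ZT21 minus ZT17, from 19 to 29 (limma-trend) or 9 to 19 at ZT1 minus ZT21 and from 126 to 63 (linear) or 32 to 114 for the 12 h term. With single livers out they were 352 to 729 (706 with all) at ZT5 minus ZT1, 701 to 1342 (1334) at ZT13 minus ZT9, 1274 to 2081 (2054) at ZT13 minus ZT1 and 966 to 1596 (1545) at ZT21 minus ZT9. No paired analysis was possible because each liver came from a different mouse and was taken once. Cirbp rested on as few as 87 reads in a liver, which limits how small a step could be seen.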
